A study of Rattus norvegicus with 28 samples.

Results

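Release of neurotransmitter depends on a small set of proteins that bring synaptic vesicles to the presynaptic membrane and fuse them with it. A SNARE protein on the vesicle (a VAMP) pairs with a syntaxin and a SNAP-25 family protein on the plasma membrane, Munc13 proteins prime this complex, complexins hold it ready, and synaptotagmins sense the calcium that enters with the action potential. Neurons use one set of these proteins, and most other cells, including leukocytes that discharge granules, use related members of the same families.

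The genes described here were taken from rat spinal cord arrays by their names alone, which had to begin with Syt followed by a digit or by l, with Snap, Stx and a digit, Vamp, Sv2, Rab3, Cplx or Unc13, or to be Syn1, Syn2, Syn3 or Syp. This gave 84 of the 35469 gene names on the array, read by 116 probes on 143 spots. The names also catch genes whose products do other work, such as Rab31 to Rab39 and the Snapc genes (subunits of a complex that transcribes small nuclear RNA genes), and these are reported apart.

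Tissue was the thoracic spinal cord of adult female Sprague Dawley rats, cut as a segment around the site of a severe contusion. Group T0 was the uninjured cord (its labels call it sham). T1, T2, T4 and T8 were taken 1, 2, 4 and 8 weeks after injury. Per the study's methods, control injured animals received cell-free medium, without a statement on which of these 4 groups that covers. T1_NPC received neural progenitor cells right after injury and T2_NPC 1 week after it, both sampled 1 week later, so that T1 and T2 are their matched injured controls. The progenitors came from cords of adult rats of the same species, so donor and host transcripts are read by the same probes, and the study's methods list tacrolimus, an immunosuppressant, in the care of all animals. Each group held 4 one-colour arrays, described as biological replicates, 28 in all. Values are log2 intensities after the authors' quantile normalization, a change is the difference of 2 group means on that scale, and a gene is said to have risen or fallen where limma gave an adjusted p under 0.05 over all 35469 names. Between 74.5% and 82.7% of spots on an array were well above background.

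A caution applies to all values. The normalized table names its columns by sample, and 16 of the 28 columns followed exactly the rank order of a scanner output deposited under a different sample, while 12 followed that of their own. The normalized table was used throughout, and the slide, scan session and background flags of a sample are those of the scanner output with its rank order. With the scanner outputs taken under the samples they were deposited for, none of the 84 genes was called in any of the 10 comparisons (unadjusted p under 0.05 for 3, 0, 37 and 16 genes at T1, T2, T4 and T8 against T0). On the 12 samples whose sources did not conflict, 44 and 54 of the 84 genes were called at T2 and T8 against T0. Each of these groups kept 2 arrays there, all of the first scan session. T1 and T4 kept 1 array each, so no counts are given for them. The share of all features is not set beside these counts, so they do not show whether the 84 genes exceed it.

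After contusion more of these genes were lower than higher at each time from 1 to 8 weeks. At T1, 42 of the 84 genes fell and 18 rose, 71.4% in all, beside 44.1% of all features (25.1% lower, 19.1% higher). At T2, 41 fell and 15 rose, beside 40.0% of all features (22.2% lower, 17.7% higher). At T4, 38 fell and 18 rose, beside 38.5% (21.0% lower, 17.5% higher), and at T8, 39 fell and 17 rose, beside 39.7% (21.5% lower, 18.2% higher). The median change of the 84 genes was -0.43, -0.46, -0.34 and -0.35, against -0.10, -0.05, -0.06 and -0.04 over all features. These 4 comparisons share the T0 arrays. In all, 32 genes were lower at all 4 times (38.1% of the 84, against 15.9% of all features), 15 were higher at all 4 (17.9% against 12.3%), 20 passed at some times in one direction, 16 at none, and Rab3b alone changed direction.

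**Figure D1:**
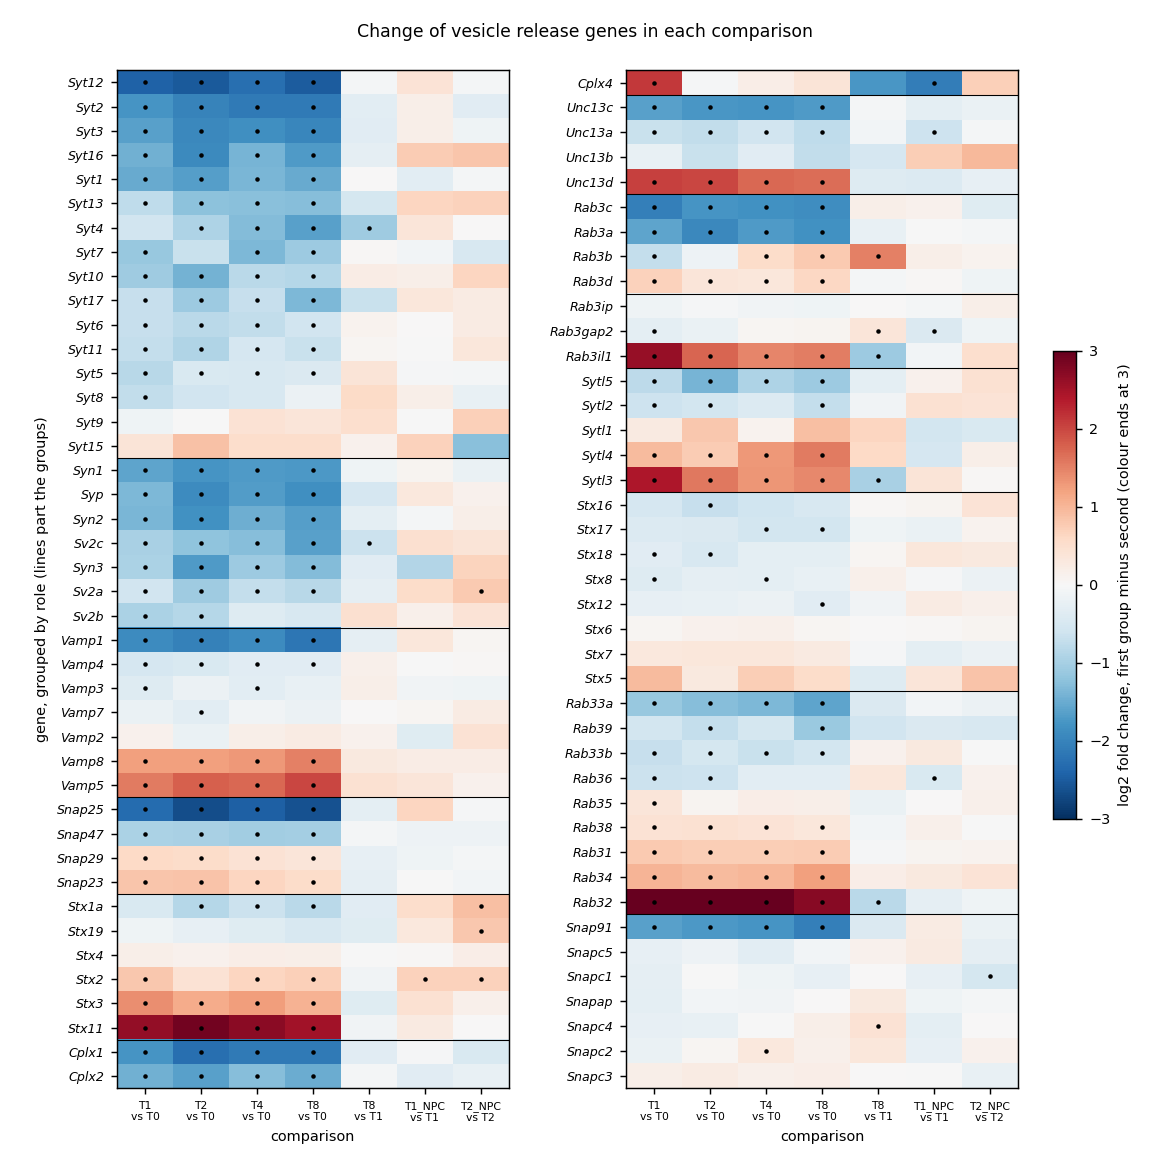
Log2 fold change of the genes reported (rows, grouped by role, lines part the groups) in 7 comparisons (columns), with blue for lower and red for higher in the first group named, and a dot where limma's adjusted p was under 0.05. Many neuronal members, such as Snap25, Syt1 and Syn1, form blue rows across the first 4 columns. The rows of Vamp2 and Syt9 do not, and Rab3b turns from blue to red. Rab32, Stx11, Unc13d, Sytl3 and Rab3il1 form red rows, and few dots stand in the last 3 columns.

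In bulk tissue, fewer cells of a type and less RNA per cell cannot be told apart. Of 13 neuron markers measured, 12, 12, 13 and 13 fell at T1, T2, T4 and T8, with median changes of -1.35, -1.57, -1.44 and -1.57, and all 5 markers of inhibitory neurons fell at each time. The mean log2 level of the neuron list lay between 14.08 and 14.45 on T0 arrays and between 12.55 and 13.28 on T1 arrays. Of 10 markers of microglia and macrophages, 10, 9, 10 and 10 rose, with medians of 2.98, 2.67, 2.51 and 2.42, and their mean level lay between 8.86 and 9.18 at T0 and between 12.18 and 12.66 at T1. All 5 T cell markers and all 4 Schwann cell markers measured also rose at each time, and 6, 7, 5 and 7 of 8 oligodendrocyte markers fell. The part of these shifts in the changes below was not tested.

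Among the SNAP-25 family, the neuronal form fell and the widely expressed form rose. Snap25, the plasma membrane SNARE of synapses, had one of the largest falls of all members. Its level was 15.32, 14.93, 15.07 and 15.02 on the T0 arrays, 13.19, 12.47, 13.35 and 12.06 in T1, 11.67, 13.45, 13.08 and 11.56 in T2, 11.94, 12.61, 12.99 and 13.01 in T4 and 12.65, 12.13, 12.66 and 12.42 in T8. Every injured array lay below every T0 array, and the T2 arrays spread most. The change was -2.32 ± 0.40 (SE, n = 4 per group) at T1, a 4.99-fold fall (limma adjusted p = 5.24e-05), and -2.65, -2.45 and -2.62 later. Snap23, its relative in most other cells, moved the other way, from 9.44, 9.13, 9.44 and 8.98 in T0 to 10.12, 10.17, 9.97 and 10.12 in T1, 10.39, 9.98, 9.94 and 10.14 in T2, 9.96, 9.97, 9.79 and 9.84 in T4 and 9.77, 10.11, 9.67 and 9.69 in T8. Its rise was 1.79-fold at T1 (0.84 ± 0.15, adjusted p = 5.13e-05) and 1.47-fold at T8, with no overlap between T0 and any injured group. Snap29, which serves intracellular fusion, rose at all 4 times (0.60, 0.54, 0.44 and 0.36), and Snap47 fell at all 4 (-0.96, -0.98, -1.05 and -1.02).

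The probes behind this contrast are shown by their first 30 bases, for the Snap25 probe (rn4 chr3:124893776-124893835) and for the Snap23 probe that starts at base 719 of its mRNA record (rn4 chr3:107361073-107361132), both on the plus strand. All 3 Snap23 probes rose at T1, and the outer ones did so by 0.91 and 0.87.
Snap25: ttcttgtaaaactgtgacattccacagagc
Snap23: acaccaacaagaatcgcattgacattgcca

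Among the plasma membrane syntaxins, Stx1a fell from T2 on while Stx3 and Stx11 rose. Stx1a, a neuronal syntaxin, changed by -0.46 at T1 (adjusted p = 0.104) and fell at T2 (-0.86), T4 (-0.64) and T8 (-0.80). Its T0 arrays read 5.97, 6.67, 5.96 and 7.02, with replicates 2 and 4, scanned in another session than 1 and 3, being the higher ones. Stx3, known from apical and ribbon-type exocytosis, rose from 6.83, 7.12, 7.0 and 7.30 in T0 to 8.24, 8.71, 8.20 and 8.71 in T1, 8.36, 7.79, 7.75 and 8.79 in T2, 8.46, 8.65, 8.05 and 8.07 in T4 and 8.49, 7.87, 8.12 and 7.93 in T8. Its groups did not overlap with T0 at any time, and the rise was 2.64-fold at T1 (1.40 ± 0.23, adjusted p = 2.23e-05). Stx11, a syntaxin of immune cells needed for granule release by cytotoxic lymphocytes, rose 6.21-fold at T1 (2.63 ± 0.32, adjusted p = 4e-07) and 5.76-fold at T8. Stx2 rose at T1, T4 and T8, while Stx4 changed by 0.14 to 0.20 and Stx19, above background on 0 arrays, by -0.12 to -0.49, neither passing the test.

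**Figure D2:**
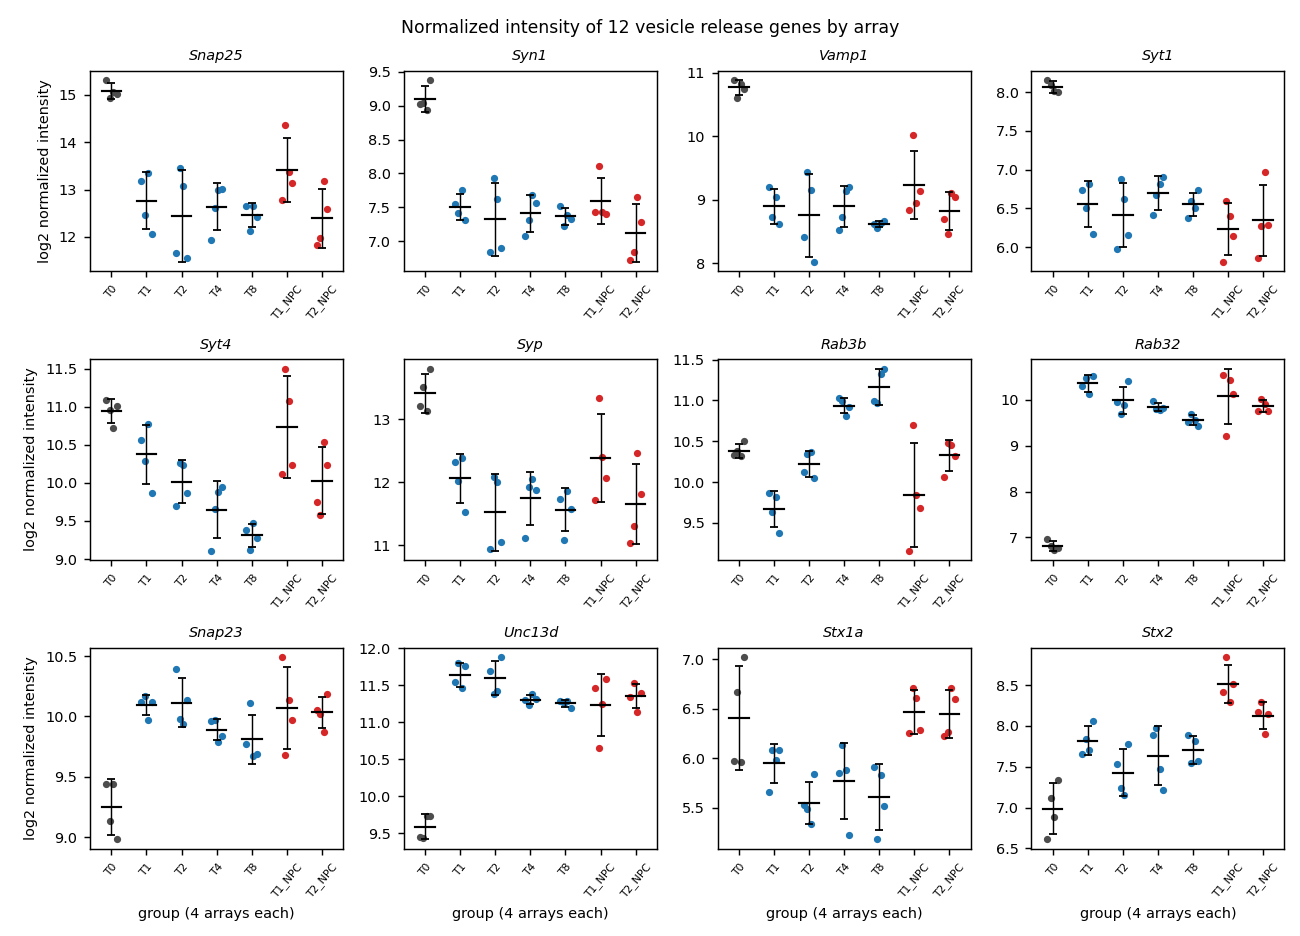
Log2 normalized intensity of 12 genes (each panel has its own vertical axis) on every array, by group along the horizontal axis. Points are arrays (grey T0, blue injured, red transplanted), bars the mean with 1 SD. Snap25, Syn1, Vamp1 and Syt1 lie lower on every injured array than on any T0 array, Rab3b passes from below to above its T0 level, and Stx1a and Stx2 lie higher after transplantation at T2_NPC than at T2.

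Vesicle SNAREs moved in both directions, Vamp1 and Vamp4 being lower and Vamp5 and Vamp8 higher at every time. Vamp1, a neuronal VAMP abundant in spinal cord, read 10.89, 10.61, 10.83 and 10.75 in T0, 9.20, 8.72, 9.05 and 8.61 in T1, 8.41, 9.43, 9.15 and 8.02 in T2, 8.52, 8.73, 9.13 and 9.20 in T4 and 8.62, 8.55, 8.63 and 8.66 in T8. No injured array reached the T0 range, and the fall was 3.67-fold at T1 (-1.88 ± 0.26, adjusted p = 2.9e-06) and 4.46-fold at T8. Vamp5, described mainly from muscle, rose from 11.46, 10.94, 11.52 and 10.94 in T0 to 12.90, 12.67, 12.62 and 12.89 in T1, 13.11, 12.97, 12.95 and 13.0 in T2, 12.73, 12.70, 13.01 and 13.35 in T4 and 13.06, 13.48, 13.05 and 13.31 in T8. All injured arrays were higher than all T0 arrays, by 2.94-fold at T1 (1.56 ± 0.16, adjusted p = 4.42e-08) and 4.03-fold at T8. Vamp8, which serves late endosomes and granules, rose 2.33-fold at T1 and 2.85-fold at T8. The widely used Vamp3 fell slightly at T1 (-0.39) and T4 (-0.32), and Vamp7, a lysosomal VAMP, fell at T2 (-0.32).

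Vamp2, the principal VAMP of synaptic vesicles, did not pass the test as a mean of its 3 probes. That mean was 8.83, 9.14, 8.10 and 8.73 in T0, 8.71, 8.79, 8.93 and 8.84 in T1, 8.05, 8.78, 8.82 and 8.34 in T2, 8.92, 9.25, 8.83 and 8.52 in T4 and 9.13, 8.92, 8.50 and 9.26 in T8, with all groups overlapping and changes of 0.12, -0.20, 0.18 and 0.25 (adjusted p = 0.71 at T1). The probes did not behave alike. The 3 are shown by their first 30 bases, all on the plus strand of rn4: one on the record of a variant mRNA, VAMP2B (chr10:55850097-55850156), and a pair on the main mRNA, starting at bases 1555 (chr10:55851518-55851577) and 1853 (chr10:55851816-55851875).
Vamp2B record, base 718: ggtcttgaactccaatcacaggatacactt
Vamp2, base 1555: taattcctgcctgaaatctctggcctcatc
Vamp2, base 1853: tgatagagaaaggatctaatcgggaaaaat

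In the fit of single probes, which called 45.0%, 40.6%, 39.1% and 40.5% of 41012 probes at T1, T2, T4 and T8, the probe at base 1853 fell at T1 (-0.65 ± 0.18, adjusted p = 0.00481), T2 (-0.67) and T8 (-0.46). Its T0 arrays read 12.04, 12.55, 11.91 and 12.58 and its T1 arrays 11.39, 11.65, 11.82 and 11.64. The probe at base 1555 moved by -0.27, -0.44, -0.08 and -0.04 and did not pass. The VAMP2B probe was well above background on 3 of 28 arrays and read 3.20, 3.16, 1.40 and 1.55 in T0 and 3.69, 3.44, 3.83 and 3.43 in T1, a difference of 1.27 ± 0.54 (adjusted p = 0.0574). Without probes that were dim in every group, the Vamp2 change at T1 was -0.46, against 0.12 as the mean of all 3.

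Probes of Vamp4 and Rab3d parted along one transcript. Vamp4, a VAMP of the Golgi network and endosomes, is read by 6 probes on one mRNA record. The 3 that start at bases 161, 288 and 346 changed by -0.18 to -0.10 at T1, none passing, whereas the 3 that start at bases 1251, 1743 and 2419 fell by 0.96, 0.86 and 0.87 (adjusted p = 0.000579, 0.000863 and 5.76e-05). The probe at base 288 read 10.29, 10.22, 10.34 and 9.96 in T0 and 9.94, 10.28, 10.05 and 10.09 in T1. The probe at base 2419 read 13.67, 13.64, 13.50 and 13.65 in T0 and 12.82, 12.53, 13.10 and 12.53 in T1, with no overlap. The same difference was present at T8, when the upstream probes changed by -0.09 to -0.04 and the downstream ones fell by 0.78, 0.63 and 0.48. One upstream and one downstream probe are shown by their first 30 bases (rn4 plus strand, chr13:78259260-78259319 and chr13:78269698-78269757). The probes at bases 161 and 346 cover 1384 and 1209 bases of the genome with 60 bases of sequence, so each spans an exon junction.
Vamp4, base 288: tcaggtggacgaagttattgatgtaatgca
Vamp4, base 2419: cctttgtgttcatgtgagattgtactgtag

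Rab3d, the Rab3 GTPase of secretory granules outside neurons, showed a similar split in the other direction. Its probe at base 640 (rn4 chr8:21013801-21013860, minus strand) changed by 0.29, -0.06, -0.01 and 0.17 without passing, and its probe at base 1809 (chr8:21012632-21012691) rose by 1.10, 0.80, 0.68 and 1.09 (adjusted p = 1.66e-06 at T1). The downstream probe read 9.07, 8.64, 8.76 and 8.73 in T0 and 10.13, 10.12, 9.80 and 9.57 in T1. As the mean of both probes, Rab3d read 7.93, 7.64, 7.75 and 7.75 in T0, 8.45, 8.71, 8.37 and 8.34 in T1, 8.08, 7.97, 8.09 and 8.43 in T2, 8.30, 8.16, 7.81 and 8.17 in T4 and 8.33, 8.42, 8.35 and 8.49 in T8, and rose at all 4 times (0.70 ± 0.12 at T1, adjusted p = 2.73e-05).
Rab3d, base 640: cgcctggtggatatcatctgtgacaagatg
Rab3d, base 1809: ttcgggtgtgattgatgtctctacaaagct

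**Figure D3:**
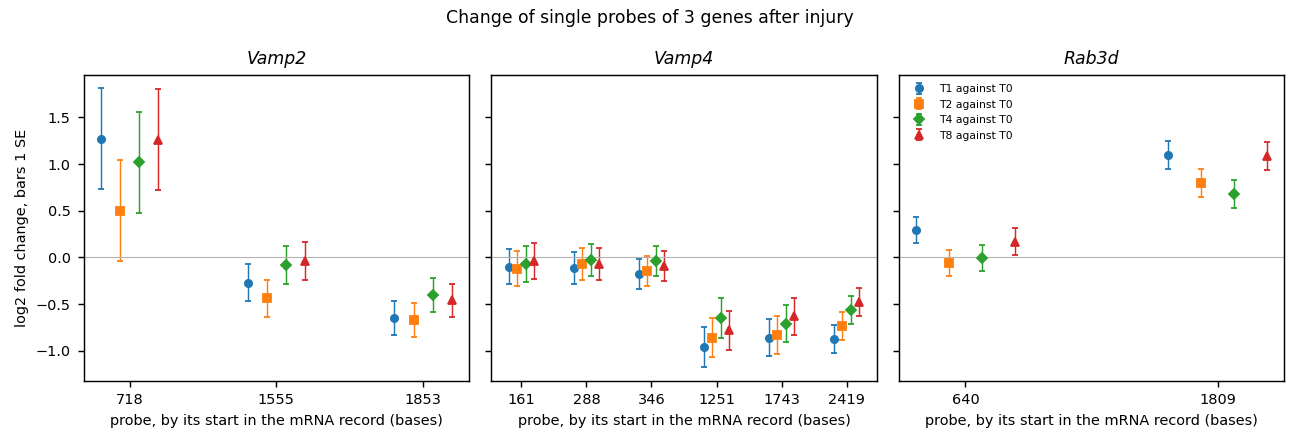
Log2 fold change against T0 (vertical axis, bars 1 SE) of each probe of Vamp2, Vamp4 and Rab3d, ordered along the horizontal axis by the base at which it starts in its mRNA record, with one marker per time point. The Vamp4 probes from base 1251 on lie between -0.96 and -0.48 and those before it between -0.18 and -0.03, the Rab3d probe at base 1809 lies above the one at base 640, and the first Vamp2 probe, on the VAMP2B record, was above background on 3 arrays.

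Of the 21 members with several probes, 18, 18, 17 and 19 had all probes moving in one direction at T1, T2, T4 and T8. The exceptions were Vamp2 and Rab3gap2 at every time, Rab38 at T1, Rab3d at T2 and T4, and Sv2b at T4, where one of the Sv2b probes was above background on 0 arrays.

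Synaptotagmins fell almost throughout. Of 16 measured, 13, 12, 13 and 13 fell at the 4 times and 0 rose, with medians of -0.79, -1.01, -1.04 and -1.19. Syt1, the calcium sensor of fast release, read 8.16, 8.09, 8.02 and 8.0 in T0, 6.74, 6.50, 6.82 and 6.17 in T1, 5.98, 6.88, 6.62 and 6.16 in T2, 6.41, 6.67, 6.82 and 6.90 in T4 and 6.38, 6.59, 6.50 and 6.74 in T8. All injured arrays lay below the T0 arrays, and the fall was 2.85-fold at T1 (-1.51 ± 0.21, adjusted p = 3.74e-06) and 2.86-fold at T8. Syt12, a synaptotagmin without calcium binding, fell most, from 10.06, 10.36, 10.49 and 10.57 in T0 to 8.36, 7.54, 8.33 and 7.58 in T1, 7.24, 8.52, 8.59 and 7.02 in T2, 7.82, 7.59, 8.69 and 8.37 in T4 and 7.86, 7.56, 8.07 and 8.02 in T8. Its groups were apart from T0 at each time, with a 5.36-fold fall at T1 (-2.42 ± 0.32, adjusted p = 1.75e-06). Syt2, which serves fast synapses of brainstem and cord, fell by 1.78 at T1 and 2.11 at T8 on the log2 scale, and Syt3 by 1.62 and 1.96. Syt11, present in glia as well as neurons, fell less (-0.71, -0.90, -0.50 and -0.66). Syt9 did not pass at any time, and Syt15 was above background on 1 array.

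Syt4, an activity-induced synaptotagmin of large vesicles, passed the test from T2 on. It read 11.09, 10.96, 10.72 and 11.01 in T0, 10.56, 10.29, 10.77 and 9.87 in T1, 9.70, 10.26, 10.24 and 9.86 in T2, 9.11, 9.66, 9.88 and 9.94 in T4 and 9.38, 9.12, 9.47 and 9.28 in T8. The T1 arrays overlapped with T0 (-0.57 ± 0.27, adjusted p = 0.087), those of T2, T4 and T8 did not, and T8 lay below T1 by 1.06 ± 0.27 (2.08-fold, adjusted p = 0.0102). Its 3 probes moved together, by -0.63 to -0.48 at T1 and by -1.79 to -1.43 at T8.

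Vesicle membrane and coat proteins fell as a group, 7, 7, 6 and 6 of 7 at the 4 times and 0 higher, with medians of -0.98, -1.69, -1.27 and -1.62. Syn1, a synapsin that tethers vesicles in their reserve cluster, read 9.03, 9.04, 8.94 and 9.38 in T0, 7.55, 7.42, 7.76 and 7.31 in T1, 6.84, 7.93, 7.62 and 6.91 in T2, 7.08, 7.32, 7.68 and 7.57 in T4 and 7.52, 7.23, 7.39 and 7.33 in T8. It fell 3.01-fold at T1 (-1.59 ± 0.23, adjusted p = 4.28e-06) and 3.32-fold at T8 with no overlap. Syp, synaptophysin, an abundant vesicle membrane protein, read 13.22, 13.51, 13.13 and 13.81 in T0, 12.32, 12.03, 12.39 and 11.53 in T1, 10.94, 12.09, 12.01 and 11.06 in T2, 11.12, 11.92, 12.06 and 11.88 in T4 and 11.73, 11.08, 11.87 and 11.58 in T8. All injured arrays were below the T0 arrays, by 2.55-fold at T1 (-1.35 ± 0.35, adjusted p = 0.0025) and 3.61-fold at T8. Sv2c, a vesicle glycoprotein, went from 7.32, 7.10, 6.98 and 6.88 in T0 to 6.33, 5.96, 6.09 and 5.99 in T1 and 5.26, 5.38, 5.57 and 5.60 in T8, and T8 lay below T1 by 0.64 (adjusted p = 0.034). Sv2b fell at T1 and T2, and Syn3 was above background on 14 of 28 arrays.

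The complexins Cplx1 and Cplx2 and the Munc13 genes Unc13a and Unc13c fell too. Cplx1 read 9.27, 8.72, 9.27 and 8.94 in T0, 7.78, 7.14, 7.47 and 6.69 in T1, 5.92, 7.82, 7.40 and 5.97 in T2, 6.24, 6.48, 7.31 and 7.71 in T4 and 6.84, 6.88, 6.94 and 7.07 in T8, lower on every injured array, by 3.44-fold at T1 (-1.78 ± 0.40, adjusted p = 0.00071). Cplx2 fell by 1.43, 1.63, 1.28 and 1.50 on the log2 scale. Cplx4, a complexin of the retina, read 1.36, 1.31, 1.26 and 1.30 in T0 and 7.04, 2.56, 1.28 and 2.87 in T1 and was called higher at T1 (2.13 ± 0.68, adjusted p = 0.0138), but it was well above background on 1 array alone, in T1. Unc13c, a Munc13 best known from cerebellum, read 10.29, 10.20, 10.17 and 10.35 in T0, 8.60, 8.44, 8.96 and 8.46 in T1, 8.20, 8.59, 8.71 and 8.53 in T2, 8.11, 8.65, 8.65 and 8.57 in T4 and 8.62, 8.48, 8.87 and 8.23 in T8. This was a 3.11-fold fall at T1 (-1.64 ± 0.19, adjusted p = 2.72e-07) with groups apart at all times. Unc13a, the main priming factor of central synapses, fell by 0.67, 0.74, 0.58 and 0.76, and Unc13b did not pass. Unc13a in T0 was higher in replicates 2 and 4 (8.08 and 8.28) than in 1 and 3 (7.07 and 7.41), as for Stx1a. Its changes were -0.46, -0.16, -0.35 and -0.38 within the first scan session and -1.06, -1.32, -0.97 and -1.13 within the second. Unc13d, which encodes Munc13-4, a priming factor of granules in blood cells, rose from 9.45, 9.43, 9.74 and 9.74 in T0 to 11.55, 11.80, 11.46 and 11.76 in T1, 11.69, 11.39, 11.43 and 11.88 in T2, 11.30, 11.23, 11.38 and 11.32 in T4 and 11.29, 11.26, 11.29 and 11.19 in T8. No injured array came within the T0 range, and the rise was 4.15-fold at T1 (2.05 ± 0.15, adjusted p = 1.89e-10) and 3.18-fold at T8.

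Rab3 GTPases, which ride on vesicles and dock them, divided by member. Rab3c read 10.46, 10.19, 10.63 and 10.26 in T0, 8.72, 8.14, 8.80 and 7.73 in T1, 8.63, 9.04, 8.84 and 8.0 in T2, 8.19, 8.47, 8.81 and 8.81 in T4 and 8.77, 8.51, 8.24 and 8.57 in T8, a fall of 4.11-fold at T1 (-2.04 ± 0.26, adjusted p = 1.14e-06) without overlap. Rab3a, the most abundant Rab3 of synapses, fell by 1.59, 1.94, 1.71 and 1.81. Rab3b fell first and rose later. It read 10.33, 10.38, 10.32 and 10.50 in T0, 9.86, 9.63, 9.82 and 9.37 in T1, 10.12, 10.34, 10.37 and 10.05 in T2, 11.03, 10.99, 10.81 and 10.92 in T4 and 10.99, 10.97, 11.33 and 11.39 in T8. The T1 arrays all lay below T0 (-0.71 ± 0.20, adjusted p = 0.00576), the T2 arrays overlapped with it (-0.16), and the T4 and T8 arrays all lay above it (0.56, adjusted p = 0.0324, and 0.79, adjusted p = 0.00283). T8 exceeded T1 by 2.83-fold (1.50 ± 0.20, adjusted p = 1.75e-05). Both Rab3b probes did so, with -0.65 and -0.78 at T1 and 0.81 and 0.77 at T8.

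Of the Rab3 regulators, Rab3il1, an exchange factor for Rab3, rose most at T1. It read 7.84, 8.72, 7.76 and 8.90 in T0, 10.34, 10.99, 10.66 and 11.70 in T1, 10.10, 9.63, 9.79 and 10.66 in T2, 9.92, 9.88, 9.96 and 9.34 in T4 and 10.16, 9.36, 10.15 and 9.70 in T8. The rise was 6.13-fold at T1 (2.62 ± 0.30, adjusted p = 1.77e-07), and T8 lay 1.08 below T1 (adjusted p = 0.0198). In T0, replicates 2 and 4 were higher than 1 and 3, as for Stx1a. Rab3gap2, a subunit of the GTPase-activating complex for Rab3, read 11.68, 11.99, 11.76 and 11.98 in T0, 11.56, 11.36, 11.81 and 11.52 in T1, 11.71, 11.59, 11.49 and 11.85 in T2, 11.94, 11.88, 12.06 and 11.76 in T4 and 12.14, 11.99, 11.78 and 11.82 in T8, and its call at T1 (-0.29) joined probes of opposite direction. One of its 3 probes rose by 0.31 at T1 and the others fell by 0.43 and 0.76. With the brightest probe alone the change at T1 was 0.31.

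Synaptotagmin-like proteins, effectors of Rab27 on granules, moved both ways. Sytl3 read 5.38, 5.34, 4.99 and 5.46 in T0, 7.87, 7.92, 7.32 and 7.75 in T1, 6.63, 6.92, 6.63 and 7.35 in T2, 6.60, 6.83, 6.67 and 6.37 in T4 and 6.92, 6.60, 6.61 and 6.81 in T8. It rose 5.36-fold at T1 (2.42 ± 0.16, adjusted p = 2.38e-11) and came down to 2.71-fold at T8. Sytl4 rose at all times (0.96 at T1 and 1.56 at T8). Sytl5 went from 6.27, 6.68, 7.93 and 7.18 in T0 to 6.37, 6.35, 6.11 and 6.09 in T1, 4.99, 5.80, 6.06 and 5.67 in T2, 5.91, 6.38, 6.22 and 5.81 in T4 and 5.99, 5.84, 5.97 and 5.93 in T8, with a fall of 0.79 at T1 (adjusted p = 0.0218) that overlapped with T0, whose arrays were wide apart.

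Genes caught by their name alone gave a mixed picture. The syntaxins of endosomes, Golgi and endoplasmic reticulum changed little, with 2 of 8 lower at each time, 0 higher and medians between -0.23 and -0.29. Stx16, of the Golgi network, read 7.27, 7.07, 7.46 and 7.18 in T0, 6.87, 6.65, 6.80 and 6.61 in T1, 6.32, 6.82, 6.45 and 6.62 in T2, 6.67, 6.70, 6.66 and 6.58 in T4 and 6.77, 6.83, 6.62 and 6.85 in T8, passing at T2 alone (-0.69, adjusted p = 0.0215). Rab32, a GTPase of lysosome-related organelles and mitochondria, rose most of all 84, from 6.96, 6.81, 6.73 and 6.76 in T0 to 10.31, 10.47, 10.12 and 10.52 in T1, 9.95, 9.70, 9.89 and 10.41 in T2, 9.97, 9.79, 9.77 and 9.82 in T4 and 9.52, 9.69, 9.57 and 9.43 in T8. This was 11.6-fold at T1 (3.54 ± 0.20, adjusted p = 9.44e-13) and 6.67-fold at T8, and both of its probes rose, by 3.58 and 3.50 at T1. Rab31, Rab34 and Rab38 rose at all 4 times. Rab33a, a Rab of brain and lymphocytes, fell from 12.12, 12.25, 12.32 and 12.21 in T0 to 11.34, 11.03, 11.11 and 10.85 in T1, 11.01, 11.31, 11.08 and 10.42 in T2, 11.02, 10.94, 10.68 and 10.87 in T4 and 10.61, 10.72, 10.38 and 10.88 in T8 (2.21-fold at T1, adjusted p = 4.26e-05). Snap91, the clathrin assembly protein AP180 that retrieves vesicle membrane, read 11.27, 10.94, 10.95 and 10.96 in T0, 9.57, 9.28, 9.99 and 8.75 in T1, 9.03, 9.70, 9.60 and 8.91 in T2, 8.82, 9.17, 9.55 and 9.54 in T4 and 9.12, 8.82, 9.13 and 8.82 in T8, a fall of 3.10-fold at T1 (-1.63 ± 0.25, adjusted p = 8.79e-06). The 5 Snapc genes and Snapap (now Snapin) did not pass, except Snapc2 at T4 (0.32, adjusted p = 0.0493), which read 10.13, 9.89, 10.43 and 10.32 in T0, 9.96, 9.97, 9.96 and 10.10 in T1, 10.27, 10.34, 10.18 and 10.25 in T2, 10.79, 10.62, 10.44 and 10.21 in T4 and 10.40, 10.21, 10.43 and 10.36 in T8.

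Within each array, 10 pairs of relatives were compared by the log2 value of the first gene minus that of the second, so that a shift common to the array cancels. In 33 of the 40 pair and time combinations the injured arrays were all lower than the T0 arrays, which gave the smallest p that 4 against 4 samples allow (exact permutation test, two-sided, p = 0.0286, adjusted p = 0.0346 over the 40). An adjusted p under 0.05 was possible only where many of the 40 reached this smallest p together. The pairs consist of genes described above, which were chosen with earlier results of these data known. Several pairs share a gene, and all share the T0 arrays. The count is therefore not independent of the single-gene changes, and the share for other gene pairs of the array was not computed. Snap25 fell relative to Snap23 by 3.16, 3.51, 3.09 and 3.18 at T1, T2, T4 and T8, an 8.96-fold change of their ratio at T1. Stx1a fell relative to Stx11 by 3.09, 3.75, 3.35 and 3.32, and relative to Stx4 by 0.64, 1.00, 0.84 and 0.96. Unc13a fell relative to Unc13d by 2.73, 2.75, 2.30 and 2.42, Rab3a relative to Rab3d by 2.29, 2.31, 2.05 and 2.44, and Syt1 relative to Syt11 by 0.80, 0.76, 0.87 and 0.86.

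Pairs of 2 neuronal members also parted. Cplx1 fell relative to Cplx2 at T1, T4 and T8 (0.35, 0.84 and 0.62), and overlapped with T0 at T2 (exact permutation p = 0.0857). Vamp1 fell relative to Vamp2 by 1.99, 1.81, 2.06 and 2.41, and by 0.89, 1.03, 1.40 and 1.60 with the brightest Vamp2 probe in place of the mean. Vamp2 against Vamp3 did not separate at any time (changes of -0.04 to 0.50, exact permutation p = 0.0571 to 0.8), and with the brightest Vamp2 probe the changes turned to -0.08 to -0.51 (exact permutation p = 0.0571 to 0.771). Vamp2 against Vamp8 separated at T2 and T8 alone with the mean of probes, and at all 4 times with the brightest probe (falls of 1.70 to 1.97).

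**Figure D4:**
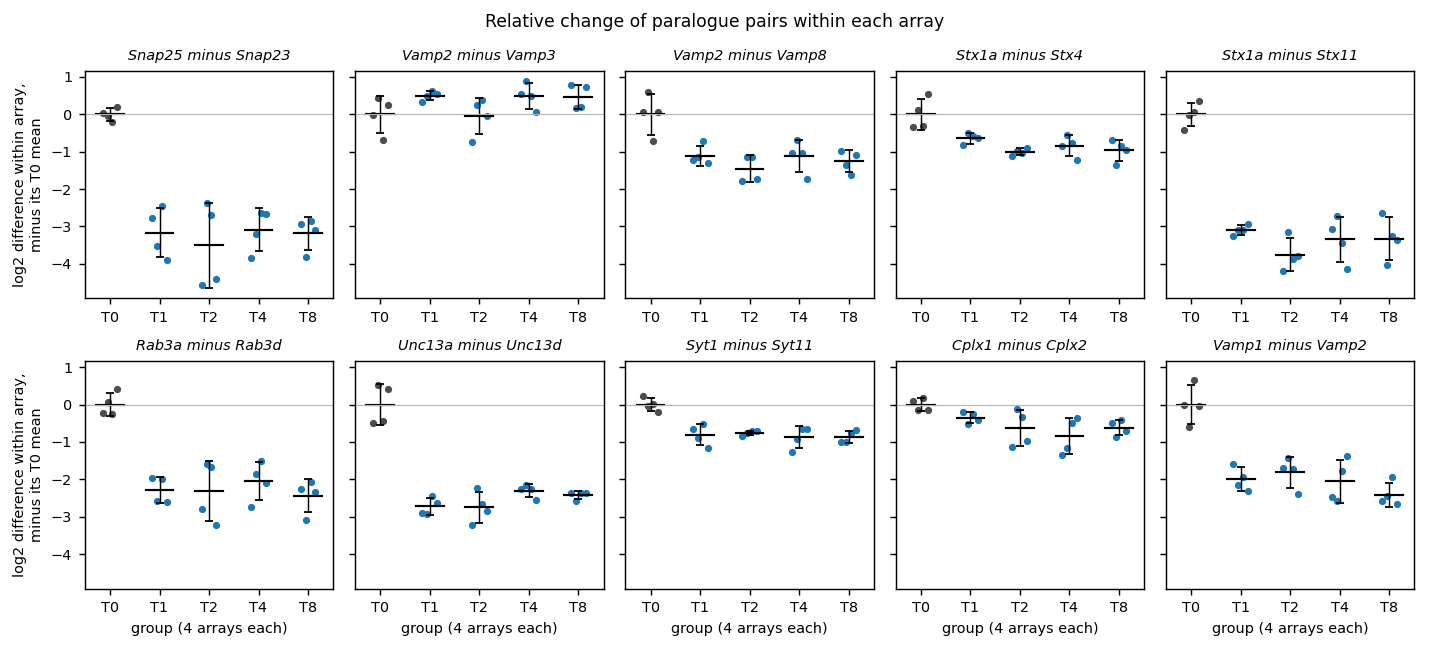
Within-array log2 difference of 10 gene pairs, minus its mean on the T0 arrays (vertical axis, shared), for T0 and the 4 injured groups (horizontal axis). Points are arrays, bars the mean with 1 SD. The injured arrays of Snap25 minus Snap23 average -3.16 to -3.51 by time and those of Stx1a minus Stx11 -3.09 to -3.75, while Vamp2 minus Vamp3 averages -0.04 to 0.50.

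Genes that act with this machinery but bear other names mostly fell too. Of 53 measured, 36, 38, 34 and 36 fell and 6, 6, 5 and 4 rose at T1, T2, T4 and T8, with medians of -0.81, -1.13, -0.92 and -0.98. The largest falls at T1 were Pclo (Piccolo, an active zone scaffold, -2.06 ± 0.31), Rph3a (rabphilin, a Rab3 effector, -2.03 ± 0.44) and Slc17a6 (the vesicular glutamate transporter VGLUT2, -2.01 ± 0.39). The largest rises were Stxbp2 (Munc18-2, the partner of Stx11, 3.75 ± 0.19, 13.5-fold, adjusted p = 3.34e-13), Slc18a2 (the vesicular monoamine transporter VMAT2, 2.70 ± 0.47) and Syngr1 (synaptogyrin-1, 1.85 ± 0.25).

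RefSeq promoters (GRCr8, 250 bases before to 50 after the start) were found for 65 of the 84 genes by symbol. The cAMP response element TGACGTCA, a palindrome bound by CREB family factors, stood in 3 of them (Syn1, Vamp1 and Snapc5; 4.62%, against 1.91% of 27457 promoters). Parts of the element bound by REST, a repressor of neuronal genes, were searched on both strands, CAGCACC (reverse GGTGCTG) in 11 member promoters (16.9% against 6.91%) and GGACAGC (reverse GCTGTCC) in 8 (12.3% against 6.64%), and the GC box GGGCGG (reverse CCGCCC) in 43 (66.2% against 34.9%). Of 22 promoters of genes lower at all 4 times, 2 held TGACGTCA, 4 CAGCACC, 4 GGACAGC and 17 GGGCGG, and of 14 of genes higher at all 4 times, 0, 1, 1 and 8. The promoters of Syn1 (chrX:3725495-3725794) and Vamp1 (chr4:159698644-159698943), both plus strand and both of genes that fell at every time, are shown with TGACGTCA and CAGCACC in capitals, their GC boxes being left in lower case.
Syn1: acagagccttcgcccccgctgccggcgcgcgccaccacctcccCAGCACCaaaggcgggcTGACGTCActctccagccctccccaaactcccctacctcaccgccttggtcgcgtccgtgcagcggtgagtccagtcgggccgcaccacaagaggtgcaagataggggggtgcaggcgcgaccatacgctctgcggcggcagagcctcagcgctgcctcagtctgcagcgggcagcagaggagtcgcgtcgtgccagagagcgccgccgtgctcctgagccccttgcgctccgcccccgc
Vamp1: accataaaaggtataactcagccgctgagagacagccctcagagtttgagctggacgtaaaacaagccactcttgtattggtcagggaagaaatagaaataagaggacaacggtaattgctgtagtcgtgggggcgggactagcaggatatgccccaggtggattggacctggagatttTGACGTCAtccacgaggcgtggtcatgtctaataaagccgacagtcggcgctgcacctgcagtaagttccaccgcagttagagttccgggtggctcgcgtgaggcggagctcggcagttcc

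From 1 week on, members were called between injured groups about as often as all features. With 4 arrays per group, the lack of a call does not show a lack of change. Between T1 and T2, Sytl3 alone was called (lower by 0.84 ± 0.16, adjusted p = 0.00767), beside 1.48% of all features. Between T2 and T4 and between T4 and T8 no member was called by limma (0.0761% and 0.0902% of features), with 6 and 3 members at an unadjusted p under 0.05. Between T1 and T8, 8 members were called, beside 9.87% of features (5.45% higher, 4.42% lower). Rab3b, Snapc4 (0.43) and Rab3gap2 (0.37) were higher at T8, and Rab3il1, Syt4, Sytl3 (-0.98), Rab32 (-0.80) and Sv2c lower. With arrays scaled to their 75th percentile the split was 5 higher and 4 lower, and with slide or scan session as a block 6 and 8 or 7 and 8. The share of all features called is not set beside these splits, so they are not a result about the members. On the 12 samples without conflict T1 kept 1 array, so no count is given for this comparison. Cell type markers moved in the same comparison. All 4 Schwann cell markers were higher at T8 (median 2.29), as were 4 of 7 astrocyte markers (median 0.62), and 2 of 10 markers of microglia and macrophages were lower (6 at an unadjusted p under 0.05, median -0.62), their mean level lying between 12.18 and 12.66 on T1 arrays and between 11.57 and 11.89 on T8 arrays. None of the 13 neuron markers was called by limma (1 at an unadjusted p under 0.05). The part of these shifts in the 8 calls was not tested.

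Over all arrays, 5 of these genes were called in each comparison of transplanted with matched injured cords. By the rank-order match, the T1_NPC arrays shared one slide and the T2_NPC arrays another, in a scan session that held no other group, so transplantation cannot be told apart from slide or session. As deposited, each group still lay on a slide of its own, but in sessions that held time-course arrays too. At T1_NPC against T1, 1 member rose and 4 fell, 11.9% of all features being called (5.45% higher, 6.46% lower). At T2_NPC against T2, 4 rose and 1 fell, beside 9.47% of features (4.62% higher, 4.85% lower). On the 12 samples without conflict (4 T2_NPC and 2 T2 arrays here), 12 rose and 5 fell at T2_NPC, beside 20.9% of features, with 3 of the 5 members called over all arrays among them in the same direction. T1_NPC could not be fitted there, since all 4 of its columns conflict. The share of spots well above background was 74.5% to 76.4% on T1_NPC arrays and 79.0% to 81.9% on T1 arrays, and its part in the T1_NPC values was not tested. None of the 13 neuron markers was called in either comparison, with 2 and 1 of them at an unadjusted p under 0.05 by limma. At T2_NPC, 2 of 8 oligodendrocyte markers were higher (5 at an unadjusted p under 0.05, median 0.38), and their mean level lay between 14.21 and 14.33 on T2_NPC arrays and between 13.77 and 14.15 on T2 arrays. There 1 of 5 endothelial, 1 of 10 microglia and macrophage and 1 of 6 skeletal muscle markers were higher too, and at T1_NPC 1 of 5 endothelial markers was higher and 1 of 6 muscle markers lower. The part of these markers in the members' values was not tested.

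Stx2, a plasma membrane syntaxin of epithelia and other cells, was higher in both. It read 7.66, 7.84, 7.71 and 8.06 in T1 and 8.41, 8.84, 8.29 and 8.51 in T1_NPC (0.70 ± 0.18, 1.62-fold, adjusted p = 0.0139), and 7.53, 7.24, 7.15 and 7.78 in T2 and 8.17, 8.29, 7.90 and 8.14 in T2_NPC (0.70 ± 0.18, adjusted p = 0.0165). The groups did not overlap in either case. Stx1a read 5.53, 5.49, 5.34 and 5.84 in T2 and 6.22, 6.27, 6.71 and 6.60 in T2_NPC, 1.87-fold higher (0.90 ± 0.22, adjusted p = 0.0137). Its mean was 6.45 in T2_NPC and 6.41 in T0. By the rank-order match no T0 array shared the scan session of T2_NPC, and Stx1a differed between sessions within T0. The closeness of these means therefore cannot be read as a return to the T0 level. At T1_NPC Stx1a read 6.26, 6.71, 6.61 and 6.29, against 5.66, 6.08, 5.98 and 6.08 in T1, a difference of 0.52 that did not pass. Sv2a, a vesicle glycoprotein, read 11.53, 12.44, 12.13 and 11.68 in T2 and 12.51, 12.65, 13.10 and 12.63 in T2_NPC (0.78 ± 0.23, adjusted p = 0.0322), while its T1_NPC difference was 0.54. Snap25 differed from the matched injured cord by 0.64 at T1_NPC and -0.04 at T2_NPC, neither passing.

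Other members were lower. At T1_NPC, Unc13a read 6.45, 6.11, 6.56 and 6.55 against 6.78, 7.0, 7.12 and 7.24 in T1 (-0.62 ± 0.20, adjusted p = 0.0438), Rab3gap2 10.99, 10.99, 11.29 and 11.24 against 11.56, 11.36, 11.81 and 11.52 (-0.43 ± 0.12, adjusted p = 0.0175) and Rab36 9.48, 9.21, 9.50 and 9.70 against 9.98, 9.55, 10.05 and 10.10 (-0.45, adjusted p = 0.038). Only Rab36 overlapped between the groups. The fourth was Cplx4 (-2.08, adjusted p = 0.0496), with 1 T1 array and no T1_NPC array above background. The Rab3gap2 change was 0.14 with its brightest probe. At T2_NPC, Snapc1 read 9.0, 8.89, 8.94 and 8.98 against 9.76, 9.22, 9.40 and 9.56 in T2 (-0.53 ± 0.12, adjusted p = 0.00661), and Stx19, called higher by 0.82, was above background on no array. The difference between the 2 transplantation effects was tested for each member and none passed (lowest adjusted p = 0.136, Syn3). Leaving out T1_NPC replicate 2 left 0 members called at T1_NPC. On that array the Vamp4 probe at base 288 read 8.98, against 10.05, 10.14 and 9.98 on the other T1_NPC arrays. The Vamp4 probe at base 1743 went the other way, with 10.93 against 9.54, 10.07 and 9.69, and the cause was not tested. With slide as a random block 1 and 3 members were called at T1_NPC and T2_NPC. Scaling to the 75th percentile gave 5 higher and 4 lower at T1_NPC and 2 higher and 1 lower at T2_NPC. The counts under these other settings stand without the share of all features called.

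Scan sessions could be compared within the time course, whose arrays spanned 5 slides and 2 sessions by the rank-order match (3 sessions as deposited). All 60, 56 and 56 members called at T1, T2 and T8 against T0 changed in the same direction within each session, as did 56 of 56 in one and 55 of 56 in the other at T4, the exception being Snapc2. The calls were made on these same arrays, so agreement in direction was largely fixed in advance. The share over all called features was not computed. The members lower at T1 had a median change of -0.86 in the first session (1 T1 array and 2 T0 arrays) and -1.08 in the second (3 and 2). Sizes differed between sessions, the members lower at T2 having medians of -1.03 in the first and -1.6 in the second. With session as a block, 69, 63, 63 and 62 members were called, and with slide, 67, 65, 64 and 62. These counts too stand without the share of all features called.

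Single arrays decided some calls. Whichever array was left out, 53 of 60 calls at T1, 49 of 56 at T2, 43 of 56 at T4 and 53 of 56 at T8 stayed. At T1, Sv2a (adjusted p = 0.0434) was lost without any array of T0 or T1 but T0 replicate 3 (0.0515 to 0.161), while Sytl5 was lost without T0 replicate 3 or 4 or T1 replicate 4 (0.0527 to 0.133). Rab3gap2 at T1 was lost without T0 replicate 2 or 4 or T1 replicate 1, 2 or 4 (0.07 to 0.162). Rab3d was lost at T2 without T2 replicate 4 (0.0692) and at T4 without T0 replicate 2 or T4 replicate 1, 2 or 4 (up to 0.0899), and Stx16 at T2 without T0 replicate 3 or T2 replicate 1 (0.0632 and 0.0655). At T4, Stx1a and Unc13a were each lost without T0 replicate 2 or 4 or T4 replicate 4 (up to 0.127 and 0.11), Rab3b without any array but T0 replicate 4 and T4 replicate 3 (up to 0.074), and Snapc2 without T0 replicate 1 or 2 or T4 replicate 1, 2 or 3 (up to 0.195). Vamp3 at T4 was lost without T0 replicate 1, 2 or 3 or T4 replicate 1, 2 or 3 (up to 0.0961), Sv2a and Sytl5 at T4 without T0 replicate 4 and T0 replicate 3 (0.0618 and 0.0532), and the T2 call of Vamp7 without replicate 1 or 4 of T2 or 1 or 2 of T0 (up to 0.096).

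Between T1 and T8, Rab3b, Syt4, Sytl3 and Rab32 stayed called whichever array was left out. Rab3il1 was lost without T1 replicate 2 or 4 or T8 replicate 2 or 4 (up to 0.106), Sv2c without any array but T8 replicate 3 and 4 (up to 0.103), Snapc4 without T1 replicate 2, 3 or 4 or T8 replicate 1 or 4 (up to 0.112) and Rab3gap2 without any array but T1 replicate 3 and T8 replicate 3 (up to 0.17). At T2_NPC, Stx1a and Snapc1 stayed, whereas Sv2a was lost without T2 replicate 1 or 4 or T2_NPC replicate 2, 3 or 4 (up to 0.112) and Stx2 without T2 replicate 2 or 3 or T2_NPC replicate 2 (up to 0.0618). At T1_NPC each call was lost without at least 1 array, Cplx4 without T1 replicate 1 or 4 or any T1_NPC array (up to 0.114), Stx2 without T1_NPC replicate 2 (0.0545), Rab3gap2 without T1 replicate 3 or T1_NPC replicate 2 (up to 0.0722), Unc13a without T1 replicate 2, 3 or 4 or T1_NPC replicate 1, 2 or 3 (up to 0.138) and Rab36 without T1 replicate 1, 3 or 4 or T1_NPC replicate 1, 2 or 3 (up to 0.128).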

How the data were processed

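RNA of rat spinal cord was hybridised to Agilent one-colour arrays, 28 in 7 groups of 4. The authors deposited log2 values, background corrected by the Agilent method and quantile normalized per the study's methods. The authors also deposited scanner outputs (Agilent Feature Extraction 10.7.1.1) with intensities on a linear scale, used here for annotation (rn4), slide, scan session and alternatives, and other per-spot columns of 0 or 1, which gave the background flags.

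Spots, then probes, were averaged per gene name (35469 names). One limma fit (3.58.1, R 4.3.3) over all 28 arrays gave every comparison, with Benjamini-Hochberg adjustment over all names and a threshold of 0.05. Pairs were tested by two-sided exact permutation. Replicates are described as biological, and their number limits the precision. Values for every time-course sample are given for Snap25, Syt1, Vamp2, Syp and Snap23. They are also given for the largest fall and rise of each role group among members above background on every time-course array. For members called between later groups, values of at least the groups compared are given, except for Snapc4, Stx19 and the T1_NPC arrays of Cplx4. Alternatives covered source, scaling, background, dim probes, probe choice, moderation, samples, slide, session, replicate block, size of change and single arrays. Members and lists were chosen with earlier results of these data known. The steps were tested on simulated data. RefSeq held 82 of the 84 names as current symbols. Counts cover all 84 genes, and the values of 1 of them are not reported here.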

Additional observations from a re-analysis of the deposited data

Results flagged for a closer look

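In each group of 4 arrays, the gap between the highest or lowest array and its nearest neighbour was set against the range of the group. Of 259 gene and group combinations, 11 had a gap above Dixon's critical value, and chance gives about 1 in 20.

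Unusually high arrays were Syn1 in T1_NPC replicate 2 (log2 level 8.11, nearest array 7.44), Stx16 in T2_NPC replicate 1 (8.18, nearest 6.59), Stx19 in T2_NPC replicate 1 (3.92, nearest 2.73), Snap91 in T0 replicate 1 (11.27, nearest 10.96), Snapc2 in T1 replicate 4 (10.1, nearest 9.97) and Cplx4 in T4 replicate 2 (2.26, nearest 1.31). Unusually low arrays were Sv2c in T4 replicate 1 (5.27, nearest 5.9), Unc13c in T4 replicate 1 (8.11, nearest 8.57), Rab3il1 in T4 replicate 4 (9.34, nearest 9.88), Rab33a in T2_NPC replicate 2 (10.46, nearest 10.86) and Stx16 in T1_NPC replicate 1 (6.49, nearest 6.88). Stx19 was above background on no array.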

How the results depend on the processing

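The source of the values mattered most: with scanner outputs under their deposited samples the counts of called genes were 0 in all comparisons, and 0 pair tests passed. A pair test passes only where many of the 40 reach the smallest p together, so the latter does not show that no pair separated. On the 12 samples without conflict the count was 17 at T2_NPC against T2, and T1_NPC against T1 could not be fitted. T1 and T4 kept 1 array each there, so their counts are left out. Asking for a 2-fold change left 30, 33, 34 and 37 at T1, T2, T4 and T8 against T0, 0 at T2 against T1, 3 at T8 against T1, 1 at T1_NPC and 0 at T2_NPC. With the 2 compared groups alone the counts were 0 (T2 against T1), 5 (T8 against T1) and 0 (T1_NPC). With time-course arrays alone T2 against T1 gave 2 and T4 against T2 gave 1. Slide as a fixed block gave 2, 1 and 14, and scan session 3, 1 and 15, at T2 against T1, T4 against T2 and T8 against T1. Slide as a random block gave 1 at T1_NPC and 3 at T2_NPC, the 75th percentile 9 and 3, and normexp 9 at T1_NPC. The 75th percentile moved the median change of all features by -0.27 at T1, -0.16 at T4, 0.12 at T2 against T1, 0.15 at T8 against T1 and 0.11 at T1_NPC. The cause of these differences was not tested. Counts of called genes in this section stand without the share of all features called under the same setting.

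Leaving out single arrays gave 57 to 59, 53 to 58, 50 to 54 and 54 to 58 at T1, T2, T4 and T8 against T0, 1 to 2 at T2 against T1 (2 without T1 replicate 3), 0 at T4 against T2 and T8 against T4, and 31 to 33 pair tests. T8 against T1 gave 4 to 8 (4 without T1 replicate 2 or 4, 5 without T8 replicate 2 or 4), T1_NPC 0 to 6 (0 without T1_NPC replicate 2; 2 to 3 without T1 replicate 1, 3 or 4 or T1_NPC replicate 3) and T2_NPC 3 to 4 (3 without T2 replicate 1). With the replicate block the counts were 58, 56, 55, 56, 1, 0, 0, 7, 4 and 5 in the order T1, T2, T4 and T8 against T0, T2 against T1, T4 against T2, T8 against T4, T8 against T1, T1_NPC and T2_NPC, none over 1.5 times from the count without it. Replicate numbers do not pair the samples (13 of 40 pairs correlated above 0.1, range -0.339 to 0.297).

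Vamp2 at T1 turned from 0.12 to -0.14 (deposited samples), -0.06 (75th percentile), -0.31 (normexp), -0.46 (dim probes left out), -0.65 (brightest probe) and -0.08 (without T0 replicate 3, the range without single arrays being -0.08 to 0.27). With the brightest probe Rab3gap2 gave 0.31 at T1, -0.09 at T8 against T1 and 0.14 at T1_NPC. Under deposited samples Sytl3 and Rab32 at T8 against T1 gave 0.13 and 0.56, and Stx2 and Rab3gap2 at T1_NPC -0.16 and 0.36. Of 579 values for 44 named changes, 475 kept direction and side of the threshold, 85 lost the call, 7 gained it and 12 turned. Normexp on median signals, single probes and within-session values were added after seeing the data, and normexp on mean signals was not run. Genes near background (Stx19, Syt15, Cplx4) have no usable order of levels.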
